A study of Apis mellifera with 79 samples.

Results

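The genes described here are 100 of the 11151 genes measured in both castes of the apiary study. Their level in the honey bee brain differed most between colonies, relative to the spread between bees of a colony, in foragers and in nurses alike. Genes whose bees fell into a high and a low class with a wide gap between them were left out, though smaller gaps remained in some members. A gene entered if its mean was at least 1 on the log2 CPM scale (the log2 of a gene's reads scaled to the size of the library) in each caste, which 9904 genes met, and if no gap of 1 or more separated neighbouring bees when the 30 bees of a caste were sorted, with at least 2 bees on each side. Over the 9786 genes that met both conditions, the F statistic (the spread between colonies over the spread between bees of a colony) was computed in each caste, and the 100 genes with the largest smaller F were kept. The apiary values thus chose the members, and colony differences among apiary bees are given below as a description with no test. All 100 members were also measured in the field study, whose colonies the choice did not use. No table at hand pairs a member's identifier with a gene name, so the members appear by the identifiers of the deposited tables and their functions are not described.

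A honey bee colony is a family. The queen mates with many drones, so that workers of a colony are sisters, some with different fathers, that share a nest, a food store and a brood area, while workers of different colonies differ in parentage. Division of labour among workers follows age: nurses stay inside and feed the brood, and foragers, usually older, collect nectar and pollen. The brains of nurses and foragers are known to differ widely in gene expression. Clothianidin, the compound given in the apiary study, is a neonicotinoid insecticide (NNI) that acts on nicotinic acetylcholine receptors of insect neurons.

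The apiary study measured single brains of 60 worker bees of Apis mellifera by RNA sequencing, 5 foragers and 5 nurses from each of 6 queen-right colonies kept in a single apiary. Colonies C21, C23 and C28 were exposed to clothianidin in a pollen supplement and colonies C25, C26 and C27 were unexposed and received a control supplement. The field study measured 19 pools of 5 brains each from 10 colonies: 5 exposed forager pools and 5 exposed nurse pools near corn grown from treated seed, and 5 unexposed forager pools and 4 unexposed nurse pools from a site away from corn. All exposed field colonies stood at 1 site and all unexposed field colonies at another, so site and exposure cannot be told apart in those pools. The strain, the queens' origin and the age of the bees are not given in the sources used here, and bees of a colony are not replicates of its exposure. The 4 tables (caste by study) were normalized separately, so levels of foragers and nurses are set side by side only.

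Each library held 10.5 to 45.1 M reads in genes. GB50048, the gene of Mblk-1, a transcription factor known from mushroom bodies, was at 8.67 log2 CPM or above in all 79 libraries. No pair of libraries of a table agreed within sampling noise, and the closest differed by a chi-square of 21.6 per degree of freedom. The nurse C21-N3 stood farthest from its caste, with a median correlation to the other nurses of 0.942. Colonies and sequencing lanes overlapped strongly. The libraries ran on lanes of a first and a second sequencing run. All foragers of C21 ran in lane 3 of the second run, all foragers of C25 in lane 5 and all nurses of C26 in lane 7, so that for most of the differences below colony and lane cannot be told apart. With the lane as a term in the ranking, 8 of the 100 members stayed among the first 100 genes. Foragers of C21, C23 and C25 shared no lane with foragers of another colony, and nurses of C26 none with other nurses. The lane term took up their colony differences, so 8 does not tell how the members fare apart from lane. With bees of the second sequencing run alone 42 stayed, but that run held no C28 nurse and 1 C28 forager.

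The share of variance that lay between colonies had a median over the members of 52.7% in foragers and 54.3% in nurses, against 20.1% and 35.6% over the 9786 genes that passed the filters. Members were ranked by the smaller of their F values, so large shares in both castes follow from the choice. The members' F was the larger in foragers for 44 of the 100, against 24.3% of the filtered genes. The highest colony mean exceeded the lowest by a median of 0.63 in foragers and 0.58 in nurses on the log2 scale, against 0.24 and 0.32 over the filtered genes. These are levels of whole brains, in which fewer cells of a type and less RNA per cell cannot be told apart. The range was above 1, a doubling, in 27 members in foragers and in 26 in nurses, against 3.14% and 4.88% of the filtered genes, from which nothing is read, since the members were chosen for such differences. The spread between bees of a colony was slightly above that of other genes, with a median SD of 0.217 in foragers and 0.201 in nurses, against 0.186 and 0.172. The members were somewhat low in level, with medians of 4.49 log2 CPM in foragers and 4.53 in nurses, against 5.40 and 5.45 over the filtered genes.

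The colony means of foragers and nurses were positively correlated in most members, while the full order of the colonies was often not the same. The choice did not use this correlation directly, although it came from the same bees. Whether choosing genes with a large F in both castes by itself raised the correlation was not tested. The likeness of a gene, Pearson's r between its 6 colony means in foragers and in nurses, had a median of 0.68 over the members and -0.08 over the filtered genes. It was above 0 in 91 members, against 44.2% of the filtered genes, above 0.5 in 66 against 15.3%, and above 0.8 in 30 against 3.68%. The same colony was highest in both castes in 38 members, against 15.9%, and the same colony was lowest in 36, against 15.3%. Both held in 15 members, against 3.63%. These are descriptions over 6 points, and the points share lanes as well as colonies: every colony had at least 1 lane that held bees of both its castes. When means of the 8 lanes replaced those of the colonies, the median was 0.26 over the members and 0.03 over the filtered genes.

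**Figure D1:**
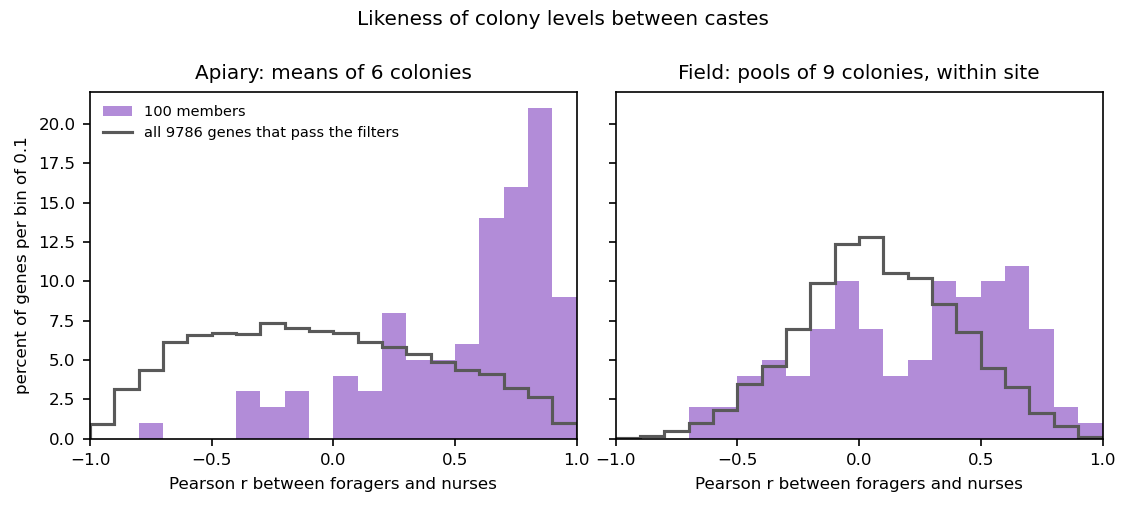
Percent of genes in each bin of Pearson's r between foragers and nurses, for the 100 members (filled) and the 9786 filtered genes (line), over the 6 apiary colony means on the left and the 9 field colonies on the right. The members sit toward 1 in the apiary, where they were chosen, with a median of 0.68, and less so in the field colonies, with a median of 0.30.

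Each member was assigned a leading colony, the colony farthest from the mean of the other colonies when both castes are averaged. It lay on the high side in 54 members and on the low side in 46, against 49.3% and 50.7% of the filtered genes. No colony led most of the members. C25 led 24 members (15 high, 9 low), C21 led 20 (10 high, 10 low), C26 led 17 (8 high, 9 low), C27 led 16 (8 high, 8 low), C23 led 12 (10 high, 2 low) and C28 led 11 (3 high, 8 low). The castes named the same leading colony and side in 30 members, against 8.50% of the filtered genes. This was frequent among members with C23 high (6 of 10) and C26 high (5 of 8). It was infrequent among those with C25 high (1 of 15), C25 low (1 of 9), C27 low (1 of 8) and C23 low (0 of 2). Members with C26 low (2 of 9) and C28 low (2 of 8) were also few. Shares of the filtered genes by class were not computed, so nothing is read from the counts by class. The median likeness was 0.34 in both C25 high and C28 low, the lowest of the classes.

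**Figure D2:**
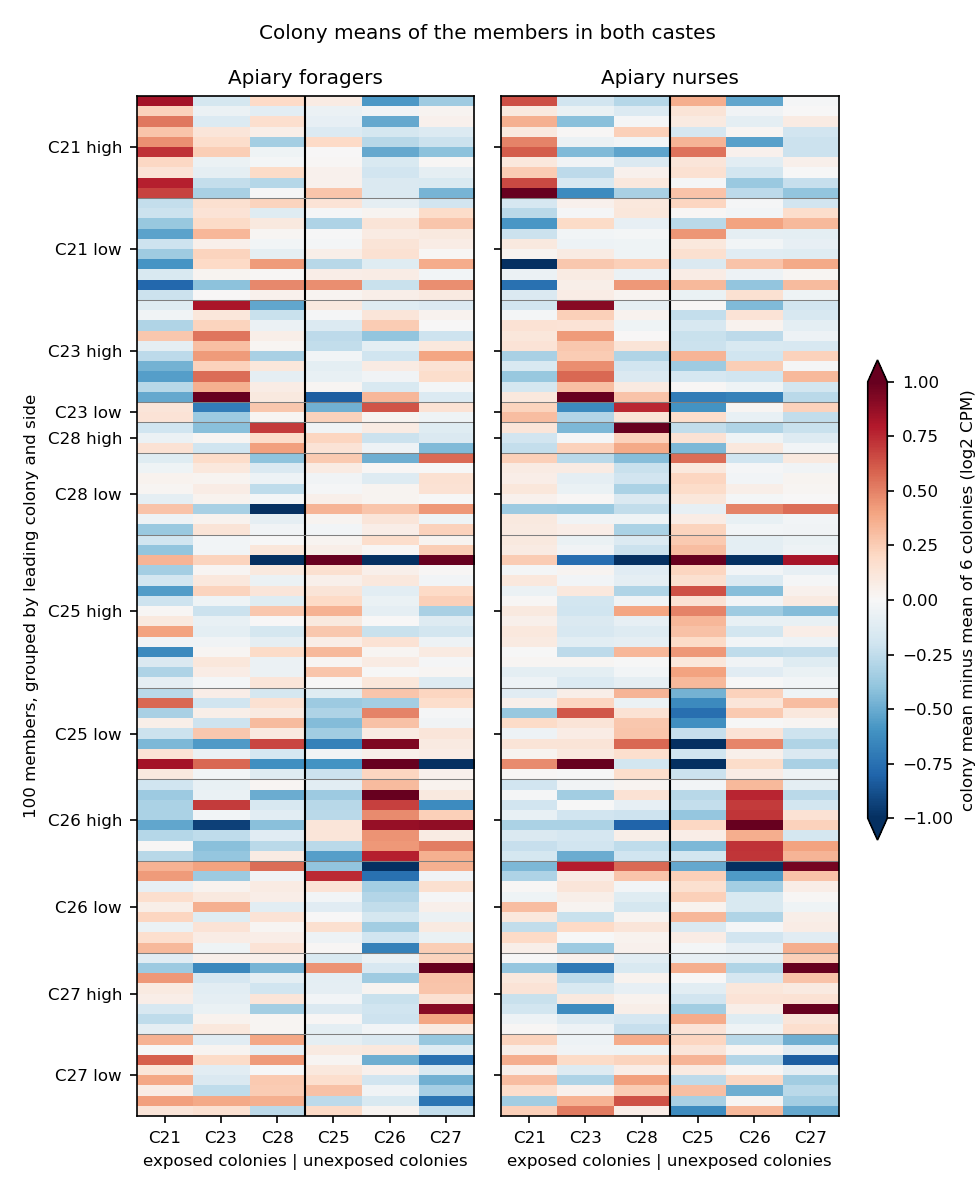
Heat map of all 100 members (rows, grouped by leading colony and side, then by smaller F) showing each colony mean minus the mean of the 6 colonies in log2 CPM, apiary foragers on the left and nurses on the right, with exposed colonies left of the black line. Blocks of the same colour recur in the same column of both castes, most plainly for C21 high, C23 high and C26 high. The rows of C25 high and C28 low differ more between the castes.

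GB43392 had the largest smaller F of all genes, 10.73 in foragers and 13.84 in nurses, and was high in colony C28. Foragers of C28 had 4.72, 4.07, 4.51, 4.35 and 4.58 log2 CPM, and the 25 foragers of the other colonies ran to 4.08 at most, so that a single C28 forager fell among them. Nurses of C28 had 4.93, 4.99, 4.93, 5.05 and 5.80 log2 CPM. A single other nurse, C21-N7 at 4.94, reached this range. The means in foragers were 4.45 ± 0.25 (SD, n = 5 bees) in C28 and 3.32 ± 0.18 in C23, the lowest colony, which was also the lowest in nurses (3.6 ± 0.34). Of the C28 foragers, 4 ran in lane 7 of the first run and 1 in lane 8 of the second, and that bee, at 4.72, was the highest. All 5 C28 nurses ran in the first run, 4 in lane 7 and 1 in lane 8. Lane 7 of that run held only C28 bees, so colony and lane cannot be told apart there. In its lane 8 the C28 nurse had 4.99, against 3.90 for the C21 nurse and 4.01 for the C27 nurse.

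GB45663 was high in colony C21 and low in C26 in both castes. Foragers of C21 had 2.60, 1.80, 2.77, 1.65 and 2.93 log2 CPM and foragers of C26 had 1.23, 1.1, 1.08, 0.76 and 0.56, with no overlap between those colonies. Nurses of C21 had 2.01, 2.24, 2.31, 2.41 and 1.86 and nurses of C26 had 0.96, 0.71, 1.17, 1.43 and 0.76, again with no overlap. The colonies between these ends overlapped with their neighbours.

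Colony C26 stood apart in GB52140, the only member in which all foragers of a colony lay outside the bees of the other 5. Foragers of C26 had 2.70, 1.83, 2.49, 2.20 and 2.39 log2 CPM, and the lowest of the other 25 foragers had 2.84. Nurses of C26 averaged lowest as well (1.95 ± 1.12, SD, n = 5 bees), but with 3.32, 1.21, 2.52, 0.47 and 2.23 they overlapped with nurses of every colony but C27. C25 had the next lowest mean in both castes (3.2 ± 0.22 in foragers and 2.79 ± 0.30 in nurses). The single C26 forager that shared lane 7 of the second run with C27 foragers had 2.39, against 3.56 and 4.04 for the C27 foragers of that lane.

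A colony's bees all lay outside those of every other colony in 1 member in foragers, against 0.0409% of the filtered genes, and in 4 members in nurses (GB41439, GB45114, GB44209 and GB42383), against 0.286%. The choice used the same bees, so nothing is read from these counts. In the other members no colony's bees were all above or all below those of every other colony. Partial gaps remained, as in GB45422, where 4 C26 foragers lay 0.92 above all other foragers.

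GB41795, GB45422, GB40710 and GB55710 were highest in C26 on average over the castes. GB41795 averaged 6.25 ± 0.29 log2 CPM in C26 foragers and 5.73 ± 0.11 in C21 foragers, and 6.46 ± 0.25 in C26 nurses and 5.95 ± 0.19 in C21 nurses (SD, n = 5 bees each). Its 4 highest nurses, at 6.51 to 6.60, were all of C26, and the fifth C26 nurse, C26-N2, had 6.01. GB45422 averaged 2.39 ± 0.87 in C26 foragers, with 2.37, 3.26, 2.57 and 2.78 in 4 bees and 0.94 in C26-F5, and 2.30 ± 0.62 in C26 nurses. That forager was the C26 bee sequenced in lane 7 of the second run, where C27 foragers had 1.28 and 1.30. All C26 nurses also ran in that lane, at 1.56 to 2.83, and a link of this gene with the lane was not tested. GB55710 averaged 6.99 ± 0.32 in C26 foragers and 7.31 ± 0.54 in C26 nurses, above every other colony mean of its caste.

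GB40710 had a second high colony in foragers only. Foragers of C26 had 4.22, 4.85, 3.96, 4.59 and 4.15 log2 CPM and foragers of C23 had 4.69, 3.6, 4.43, 4.48 and 4.62. No forager of the other 4 colonies was above 4.08. Nurses of C26 had 3.71, 4.52, 3.80, 3.68 and 4.53, while nurses of C23 had 3.37, 2.71, 4.04, 3.5 and 3.09, with a mean of 3.34 ± 0.50, against 3.26 ± 0.17 in C28, the next colony. The C26 mean was thus high in both castes and the C23 mean in foragers. This difference between castes was not tested, since the choice of the gene used these bees.

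**Figure D3:**
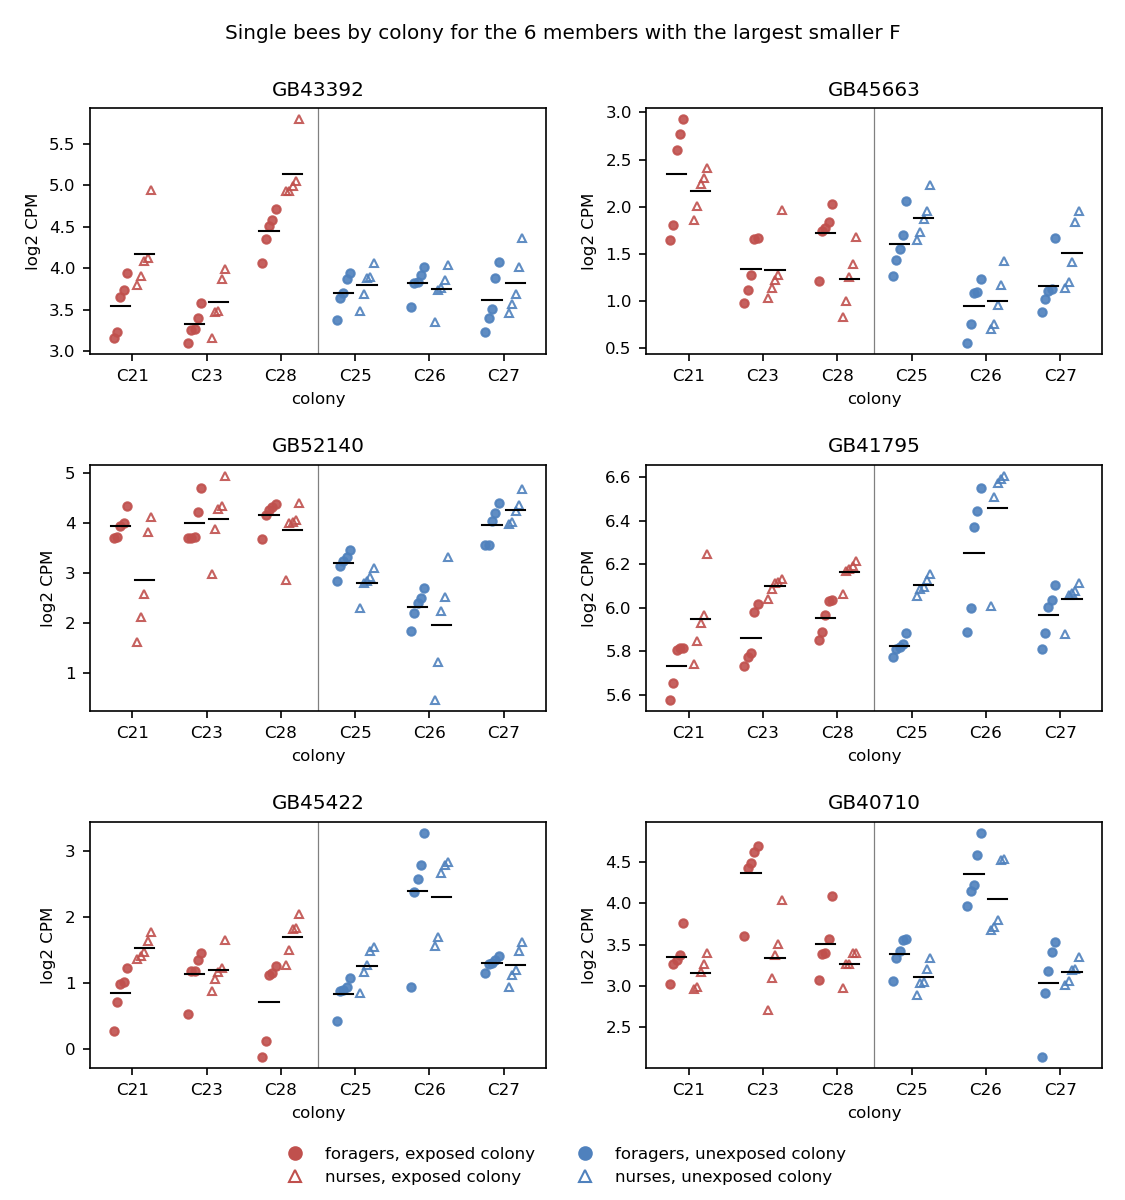
Log2 CPM of every apiary bee by colony for the 6 members with the largest smaller F, foragers as circles and nurses as triangles, exposed colonies left of the grey line, black bars for the colony mean. Colony C28 stands high in GB43392, C21 in GB45663 and C26 in GB41795, GB45422 and GB40710, and C26 stands low in GB52140, in both castes.

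Other members had small but regular differences. GB48983 averaged 5.97 ± 0.14 in C27 foragers and 5.59 ± 0.05 in C25 foragers, and 5.83 ± 0.19 in C27 nurses, the highest nurse mean. Foragers of C27 had 6.13, 5.75, 6.0, 6.0 and 5.96 log2 CPM, and nurses of C27 had 6.13, 5.69, 5.66, 5.80 and 5.84. GB50015 was high in C21 foragers, at 5.32, 5.22, 4.99, 5.09 and 5.22 log2 CPM, and lowest in C28 (4.83 ± 0.07). In nurses of this gene C21 (5.11 ± 0.09) and C25 (5.14 ± 0.13) did not differ beyond their spread, and C28 was again the lowest (4.88 ± 0.07). GB43105 had the smallest range of colony means of all members when averaged over the castes, 0.23 in foragers and 0.14 in nurses.

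The largest range belonged to GB42475, in which C25 averaged 2.82 ± 1.08 in foragers and 3.84 ± 0.39 in nurses, against 0.27 ± 1.23 in C26 foragers and 0.35 ± 1.47 in C28 nurses, the lowest means (SD, n = 5 bees each). Bees of a colony differed widely in this gene, with an SD of up to 1.85 in C21 nurses. GB40673 was lowest in C23, with 5.60 ± 0.37 in foragers and 5.43 ± 0.22 in nurses. Its C25 bees were close behind (5.82 ± 0.22 and 5.46 ± 0.08), and its highest colony was C26 in foragers (6.93 ± 0.06) and C28 in nurses (6.81 ± 0.69).

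For the remaining classes of leading colony, the first member by smaller F was GB53768 for C23 high (5.32 ± 0.32 in C23 foragers, 5.91 ± 0.47 in C23 nurses), GB45425 for C21 low (4.83 ± 0.31 and 5.05 ± 0.18), and GB53668 for C27 low (4.15 ± 0.22 and 4.28 ± 0.14). It was GB53722 for C25 low and GB42470 for C28 low, in which the low colony was the lowest in nurses (3.96 ± 0.17 and 3.15 ± 0.30) and not in foragers. The colonies kept their order most closely in GB43722, GB43835 and GB51139, with a likeness of 0.97, 0.97 and 0.95. In GB43722 the C27 mean was 3.18 ± 0.69 in foragers and 3.03 ± 0.86 in nurses, and the C23 mean was the lowest in both, at 1.34 ± 0.83 and 1.13 ± 0.82.

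In 9 members the likeness was below 0, so that colonies differed in each caste but in another order. GB54570 had the lowest likeness, -0.71: its C21 mean was the lowest in foragers (6.79 ± 0.07) and, with C25, among the highest in nurses (7.17 ± 0.08). GB40252 had -0.39, and GB45126, the member with the highest level (8.32 log2 CPM on average in foragers), had -0.34, with C26 the highest in foragers (8.50 ± 0.20) and C25 in nurses (8.44 ± 0.11). The members at the edge of the choice, GB44150 and GB47029 at ranks 99 and 100, both had a smaller F of 4.17, and the genes next outside it, GB49932 and GB50819, had 4.17 and 4.16.

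Within colonies the members varied mostly apart from each other. Over their 4950 pairs the correlation of deviations from the colony means had a median of 0.01 in foragers and 0.02 in nurses. Above 0.7 in both castes were 2 pairs: GB51138 and GB51139, with consecutive identifiers (0.84 in foragers and 0.89 in nurses), and GB55903 and GB42659 (0.71 and 0.73).

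The field pools hold other colonies in another year, and were used to ask whether the members also varied by colony there. A model in limma of the 18 pools from the 9 colonies with both castes, with a term for site within each caste, tested whether the 2 pools of a colony deviated together. At an adjusted p below 0.05 (Benjamini-Hochberg over the 10734 genes in both field tables) 0 members were called, against 0.0279% of all genes (3 genes). At an unadjusted p below 0.05 there were 23 members of 100, against 5.96% of all genes (640 genes). The median F was 1.47 over the members and 1.18 over all genes. The likeness of forager and nurse pools over the 9 colonies, centred within site, had a median of 0.30 over the members and 0.07 over the filtered genes, and was above 0.5 in 31 members, against 10.3% of the filtered genes. It was below 0 in 34 members, against 40.8% of the filtered genes.

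Both pools of each of these 9 colonies ran in the same lane (4 colonies in lane 1, 4 in lane 2 and 1 in lane 3 of the second run), so that a difference between colonies of different lanes cannot be told apart from one between lanes. Centred within lane in place of site, the median likeness was 0.41 over the members and 0.31 over the filtered genes. Colony 2J7, alone in lane 3, adds nothing to these medians or to the colony test with lane. Without 2J7 and centred within site, the medians were 0.38 and 0.19. With lane in place of site in the test, 0 members and 4 genes were called, and at an unadjusted p below 0.05 there were 19 members of 100, against 18.1% of all genes. The members' share was thus above that of all genes with the site term and near it with the lane term, and in neither fit was a member called. The fit with lane held no site term, so site differences shared by both castes counted there as colony differences. Whether adding lane or dropping site moved the shares was not tested.

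GB40673 had the lowest p of the members in this test (F = 20.3, unadjusted p = 3.1e-05, adjusted p = 0.0711 from limma). Its exposed forager pools 2J1 to 2J5 had 6.89, 7.17, 6.22, 6.40 and 6.67 log2 CPM and the nurse pools of the same colonies had 6.37, 6.84, 5.91, 5.78 and 5.93. Its unexposed forager pools 1J7, 2J6, 2J7 and 2J10 had 7.13, 6.65, 6.98 and 6.26 and the nurse pools of these colonies 6.64, 6.41, 6.67 and 5.69. Colonies 2J2, 1J7 and 2J7 were high and colonies 2J3, 2J4 and 2J10 low in both castes, and the likeness was 0.92. It was called with quantile normalization, without the site term and without colony 2J6, in each case as the only member, among 7, 7 and 5 genes called. With lane in place of site its adjusted p was 0.168 from limma. Colonies 2J2, 1J7 and 2J10 ran in 1 lane and 2J3 and 2J4 in another.

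GB48881 followed, with a likeness of 0.86 and an adjusted p of 0.202 from limma. Its pools of 1J7 were high in foragers (6.37) and nurses (5.96), and its pools of 2J4 were low in foragers (5.31) and nurses (5.20). GB42475, the member with the widest range in the apiary, had an adjusted p of 0.340 and was highest in colony 2J1 of both castes, at 4.70 in foragers and 4.25 in nurses. The next highest pools were those of 1J7, at 3.93 and 3.01. GB46710 (adjusted p = 0.380) had 4.66 in foragers of 2J6, its highest forager pool, and 4.57 in nurses of 2J5, its highest nurse pool, and 2J3 was lowest in both castes (2.57 and 3.19). GB50283 had an adjusted p of 0.456. Of the members at ranks 1 to 3 by the apiary F, GB43392 and GB52140 had a field likeness of 0.66 and 0.61, and GB45663 had 0.05.

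**Figure D4:**
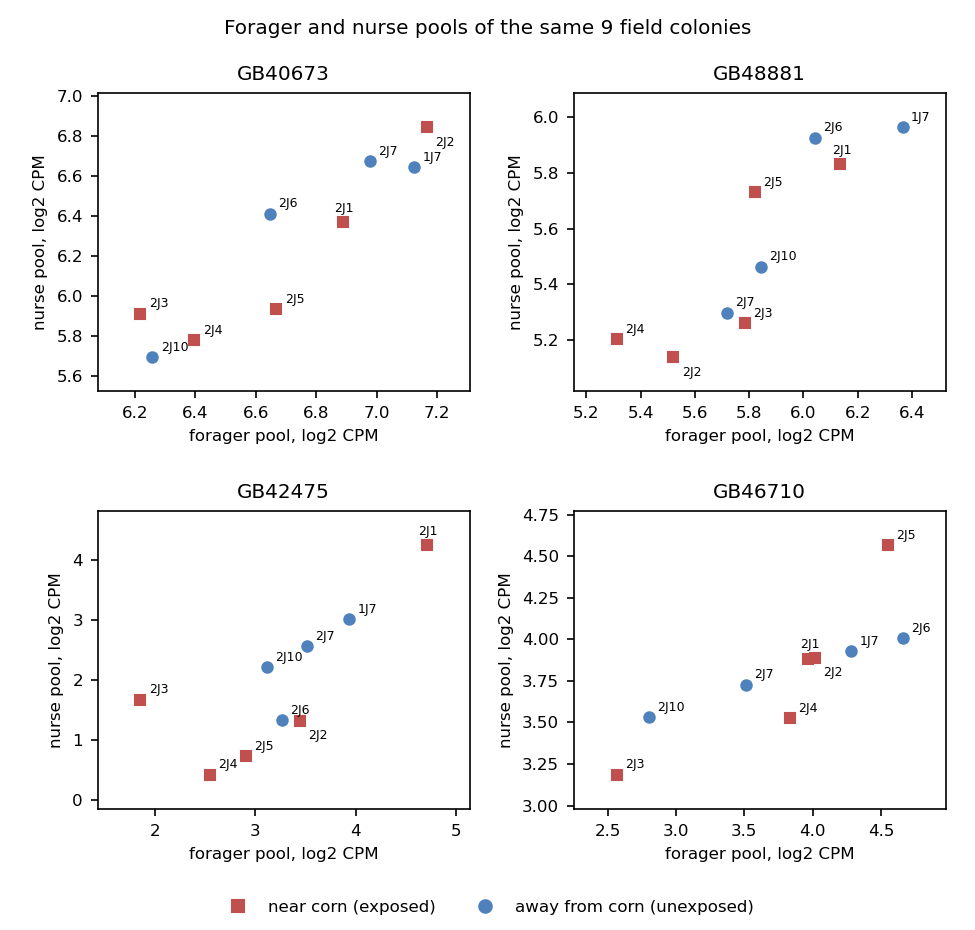
Log2 CPM of the nurse pool against that of the forager pool for the 9 field colonies with both castes, in the 4 members with the lowest p of the field colony test, with colonies near corn as squares and colonies away from corn as circles. Colonies high in foragers are mostly high in nurses, as 2J2 in GB40673 and 2J1 in GB42475.

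Exposure in the apiary is a contrast among the same 6 colonies, 3 exposed against 3 unexposed, so the members' colony differences enter it and nothing about exposure is read from the counts that follow. The exposed colony means were all above or all below the unexposed ones in 10 members in foragers, against 9.98% of the filtered genes, and in 7 members in nurses, against 9.54%. In both castes the exposed colonies were all higher in 1 member, GB43835, against 0.163% of the filtered genes, and all lower in 1 member, GB53776, against 0.184%. With bees taken as replicates, limma called 1 member in foragers, against 0.00879% of all genes (GB53776, the 1 gene called of 11381), and 1 member in nurses, GB41078, against 0.0532% of all genes (6 of 11271). At an unadjusted p below 0.05 there were 33 members in foragers, against 9.51% of all genes, and 34 in nurses, against 15.2%. With the 6 colony means as the units, limma called neither of them.

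GB53776 averaged 1.18 ± 0.56 log2 CPM in exposed foragers and 2.43 ± 0.50 in unexposed foragers (SD, n = 15 bees each), which is a difference of -1.25 on the log2 scale. Exposed foragers had 0.30 to 2.34 and unexposed foragers 1.5 to 3.36. Its colony means in foragers were 1.28 in C21, 0.87 in C23 and 1.39 in C28, against 1.93 in C25, 2.68 in C26 and 2.69 in C27. In nurses the means were 0.80 ± 0.59 in exposed and 1.76 ± 0.64 in unexposed bees. The call over bees was kept with colony as a random block and lost with colony means as the units or when C26 or C27 was left out. The random block used a single correlation within colonies for all genes. In foragers 73.1% of this gene's variance lay between colonies, against a median of 20.1% over the filtered genes. Nothing is thus read from the call being kept.

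GB43835 averaged 1.66 ± 0.44 log2 CPM in exposed foragers and 1.08 ± 0.21 in unexposed foragers, and 1.70 ± 0.34 in exposed nurses and 1.35 ± 0.18 in unexposed nurses (SD, n = 15 bees each). Colony C23 was the highest in both castes. GB41078 averaged 3.21 ± 0.19 in exposed nurses and 2.85 ± 0.16 in unexposed nurses, which is a difference of 0.35 on the log2 scale. It was not called with colony as a random block, with colony means as the units, with the second run alone, without the nurse C21-N3, or without C25, C27 or C28. The second run held no nurse of C28.

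**Figure D5:**
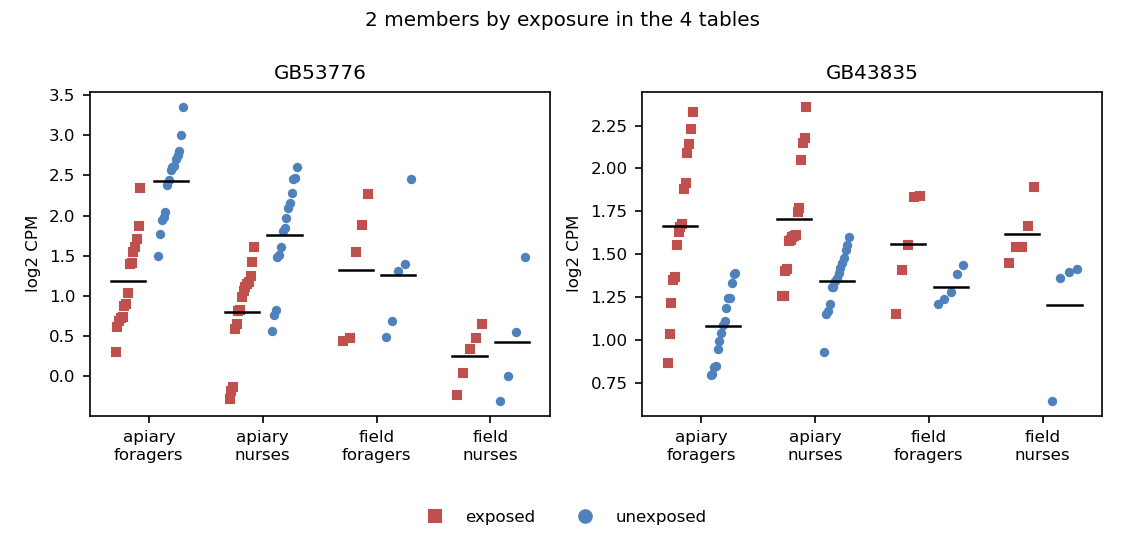
Log2 CPM by exposure in the 4 tables for GB53776 and GB43835, with exposed bees or pools as squares, unexposed ones as circles and black bars for the means. GB53776 is lower in exposed than in unexposed apiary bees, with means of 1.18 and 2.43 in foragers, and its field groups overlap, while GB43835 is higher in exposed apiary bees of both castes.

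The field pools give a comparison near and away from corn that the choice of members did not use. In field foragers limma called 0 members and 0 of 10976 genes (0% of genes), with 28 members at an unadjusted p below 0.05, against 24.2% of all genes. Without the exposed pool 2J1, 22 members and 2921 genes were called. In field nurses 0 members and 0 of 10852 genes were called (0% of genes), with 6 members at an unadjusted p below 0.05, against 4.18% of all genes. The paper, with edgeR on counts, reported differentially expressed genes in foragers and in nurses of both the field and the apiary study. The calls given here come from limma on log2 CPM and are not a repeat of that test. Some members are among the genes in the paper's supplement on differential expression, so a member not called here may have been reported there. GB53776 averaged 1.32 ± 0.83 log2 CPM in exposed and 1.26 ± 0.77 in unexposed field foragers (SD, n = 5 pools each), and 0.25 ± 0.35 in exposed and 0.43 ± 0.79 in unexposed field nurses (SD, n = 5 and 4 pools). GB43835 averaged 1.56 ± 0.29 and 1.31 ± 0.10 in exposed and unexposed field foragers, and 1.62 ± 0.17 and 1.2 ± 0.37 in exposed and unexposed field nurses. Neither passed the test (adjusted p of 0.38 to 0.95 from limma).

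Between castes the members went both ways, with 38 of 100 higher in foragers than in nurses in the apiary, against 40.3% of the filtered genes, and 62 in the field, against 58.7%. The mean in foragers minus the mean in nurses, across tables normalized separately, had a median of -0.06 on the log2 scale over the members in the apiary and 0.06 in the field, against -0.05 and 0.04 over the filtered genes. It exceeded 0.5 in size in 11 members in the apiary, against 7.42% of the filtered genes. In 5 of these, against 3.25% of the filtered genes, it did so in the same direction in the field, among them GB53776 (0.53 in the apiary and 0.96 in the field), GB49439 (1.01 and 0.54) and GB41439 (-0.54 and -0.56).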

How the data were processed

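The authors trimmed reads (Trimmomatic 0.36) and counted them per gene after alignment (STAR) to the amel 4.5 assembly with Official Gene Set v3.2, removed genes with low counts, and scaled each table by TMM with edgeR in R 3.6.3. The values were used as the authors deposited them, as log2 CPM, in 4 tables normalized separately. Reads in genes were worked back from the equal steps of these values, and for values under 20000 reads 100% came out whole to within 0.1.

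The members and lists were chosen with earlier results of these data known. Groups came from the sample labels, and 3 columns of the apiary foragers were tied by name to a colony but not to a single sample. Colony means, F and likeness were computed in Python 3.11.15 with pandas 2.3.3, numpy 2.4.6 and scipy 1.17.1, and drawn with matplotlib 3.10.9. Tests were moderated statistics with a mean-variance trend from limma 3.58.1 under R 4.3.3 (statmod 1.5.0 for the colony block), two-sided for exposure and over the colony terms for field colonies, with Benjamini-Hochberg adjustment over all genes tested. The fits were tested on simulated data. Bees of a colony share it, so p-values over bees do not measure the spread between colonies.

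Named members were the 12 with the largest smaller F, the first of each class of leading colony, the 5 with the lowest p of the field colony test, the 3 highest and 2 lowest in likeness, ranks 99 to 102, and the widest and narrowest range of colony means. Members named for exposure, caste, separation of bees or pairs were picked after their values were seen. Marker and keyword lists could not be matched to the identifiers, apart from Mblk-1, which the study's list of transcription factors names. The alternatives without the nurse C21-N3 and with lanes in place of colonies were chosen after seeing the data.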

Additional observations from a re-analysis of the deposited data

Results flagged for a closer look

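Among the members described bee by bee or pool by pool, 10 of 116 groups held a bee far from the others of its colony and caste, by Dixon's criterion at 95%, where chance alone flags about 1 in 20. In nurses, GB43392 was high in C21-N7 (4.94, others 3.80 to 4.12) and in C28-N7 (5.80, others 4.93 to 5.05). GB45663 was high in the nurse C23-N5 (1.97, others 1.03 to 1.27) and GB52140 was low in the nurse C28-N2 (2.86, others 3.99 to 4.40). GB41795 was low in the nurses C26-N2 (6.01, others 6.51 to 6.60) and C27-N4 (5.88, others 6.06 to 6.11). GB48983 was low in the nurse C23-N2 (5.54, others 5.65 to 5.68) and in the forager C28-F9 (5.65, others 5.81 to 5.86). GB40710 was low in the forager C23-F2 (3.6, others 4.43 to 4.69). GB50015 was low in the nurse C21-N3 (4.94, others 5.12 to 5.18), the library that stood apart from its caste. No field pool of the 5 members with the lowest p of the field colony test was flagged.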

How the results depend on the processing

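Of the 100 members, 81 to 98 stayed among the first 100 under log2(CPM + 1), quantile normalization, a mean of at least 2, a gap below 0.8 or without C21-N3. By contrast 64 stayed with the Kruskal-Wallis statistic, 42 with the second run alone, 8 with the lane as a term, and 57 to 65 when a colony was left out. The second run held no C28 nurse, and the lane term took up the differences of colonies that shared no lane with another. The median likeness in the apiary was 0.60 with Spearman's rho, 0.74 centred within exposure, 0.26 over lanes and 0.66 to 0.72 without a colony. The median likeness in the field was 0.41 centred within lane in place of site, where it was 0.31 over the filtered genes. Colony 2J7, alone in its lane, adds nothing to those 2 medians. It was 0.17 to 0.38 without a colony, lowest without 2J10. The field colony test called 1 member (GB40673) of 7 genes called with quantile normalization, and 1 of 7 without the site term. It called 0 to 1 member without a colony (1 of 5 genes called without 2J6). Near corn, field foragers had 0 to 22 members called without a pool (22 without 2J1, with 2921 of 10976 genes called) and field nurses 0. The next counts are members called, with all genes called in brackets, of 11381 in apiary foragers and 11271 in apiary nurses. For exposure in apiary foragers they were 0 (0) with colony means, 1 (1, GB53776) with colony as a random block and 2 (23) with the second run alone. Leaving out a colony gave 6 (68) without C23, 2 (2) without C25, 2 (3) without C28, 1 (2) without C21, 1 (1) without C27 and 0 (0) without C26. In apiary nurses they were 0 (0) with colony means, with colony as a random block and without C21-N3, and 0 (2) with the second run alone. Leaving out a colony gave 5 (117) without C21, 5 (157) without C23, 2 (13) without C25, 2 (25) without C26, 0 (2) without C27 and 0 (0) without C28. The cause of these changes was not tested. The field colony test set the pools of both castes of a colony side by side. No paired analysis was possible because, for exposure, exposed and unexposed bees or pools came from different colonies and their numbers pair none of them.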
